A study of Homo sapiens with 12 samples.

Results

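The transcripts described here are 10 genes that forkhead box O (FOXO) factors are known to switch on: IRS2, INSR, KLF6, CCNG2, CITED2, BCL6, PIK3IP1, TXNIP, SESN3 and CDKN1B. They were chosen as transcripts that rise when AKT activity falls, and all 10 symbols were matched to 1 Ensembl identifier each among the 60107 identifiers of the count table. The matching used no measured value of this experiment, but members and lists were chosen with earlier results of these data known. RNA came from glioblastoma cells labeled U251P and U251T, and the labels do not say what the letters P and T stand for. Each line gave 3 libraries from cells given the vehicle, dimethyl sulfoxide, and 3 from cells given carmofur, a fluorouracil derivative used clinically that also inhibits acid ceramidase. By the labels, cells of all 4 groups attached, were serum starved for 16 h and then spent 24 h in full medium with vehicle or carmofur, and that medium contained 10% serum, epidermal growth factor and basic fibroblast growth factor. The deposited labels name replicate numbers but not separate cultures, so the p-values below measure the spread between libraries, which may be technical. The series asks which transcripts change with carmofur in cells whose migration was studied, and these 10 genes ask it for the AKT to FOXO route.

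AKT is a kinase activated through phosphoinositide 3-kinase (PI3K) by insulin and growth factor receptors. Active AKT phosphorylates FOXO proteins, which then leave the nucleus, so their target genes are transcribed less. When AKT activity falls, FOXO proteins return to the nucleus, and their targets include feedback genes of insulin signaling, cell cycle inhibitors and regulators of metabolism and oxidative stress. In glioblastoma the PI3K to AKT route is often overactive.

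The U251T libraries stood apart from the U251P libraries in ways that the labels do not account for, and their part in the results was not tested. Total counts were 3295045 to 6350873 in U251P and 383633 to 2817379 in U251T. Genes of the mitochondrial genome held 19.5% to 26.2% of the counts in U251P and 0.354% to 0.88% in U251T, while annotated pseudogenes held 0.272% to 0.307% and 10.8% to 12.4%. B2M, the light chain of MHC class I, was at 1544 to 1942 CPM, its counts relative to the total of each library, in U251P and at 0.769 to 15.6 CPM in U251T. The 9 glioma or astrocyte markers summed to 4107 to 5086 CPM in U251P and 8831 to 14787 CPM in U251T, and their members differed in both directions. S100B, SOX2 and CHI3L1 were at 0 in all 3 U251T vehicle libraries, and CHI3L1 was also at 0 in U251P vehicle. GFAP was at 0 to 0.303 CPM in U251P and 20.9 to 83 CPM in U251T, NCAM1 at 19 to 34 and 475 to 828 CPM, and NES at 376 to 459 and 0 to 2.61 CPM. Summed over 4 genes each, endothelial markers were at or below 0.987 CPM in every library and immune markers were at 1.33 to 3.53 CPM in U251P and 8.52 to 20.9 CPM in U251T. Neuronal markers summed to 65.4 to 80.6 CPM in U251P and 1.42 to 52.1 CPM in U251T, and epithelial markers to 158 to 226 CPM and 5.32 to 17.7 CPM. Whether the U251T libraries hold RNA of the labelled line and species was not tested, and this limits above all what a difference between the lines means. Each result is therefore given within 1 line first, and the lines are set side by side last.

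The promoter of TXNIP is shown because TXNIP had the largest carmofur effect of the members tested in U251T and is 1 of only 2 members, with PIK3IP1, whose promoter windows hold the FOXO core motif. The stretch below lies at chr1:145996611-145996743 of GRCh38 on the minus strand, and capitals mark the FOXO core GTAAACA and 2 copies of CACGAG, a half-site letter string of carbohydrate response elements that was added to the search after the sequence was seen. The IRS2 stretch, at chr13:109786584-109786663 on the minus strand, is shown for contrast because IRS2 alone had the insulin response element CAAAACA, which appears here in capitals as its reverse complement.
TXNIP promoter: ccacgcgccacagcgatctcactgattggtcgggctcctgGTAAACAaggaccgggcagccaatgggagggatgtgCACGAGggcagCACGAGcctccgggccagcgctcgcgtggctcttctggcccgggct
IRS2 promoter: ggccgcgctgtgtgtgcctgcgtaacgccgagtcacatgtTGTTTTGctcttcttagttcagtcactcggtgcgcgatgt

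Sequences were taken from RefSeq (GRCh38.p14) as windows from 250 bases before to 50 bases after each annotated start, and all 10 members had at least 1 of 15 windows. Both strands were searched, and GTAAACA and CAAAACA share their last letters but cannot match the same bases. The FOXO core was 124 bases before the start of TXNIP and 16 bases past a start of PIK3IP1, and 3.42% of all 35116 windows hold it. The insulin response element was in 4.92% of all windows. The E-box CACGTG, a site for basic helix-loop-helix factors, was in windows of CCNG2, CITED2 and KLF6 and in 7.26% of all windows. CACGAG was in windows of TXNIP and BCL6 and in 6.78% of all windows, and 0.316% of windows held it at least 2 times. Because CACGAG was added after the TXNIP sequence was seen, these shares cannot gauge how rare its match is. A match describes the letters only.

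In U251P cells, none of the 10 FOXO targets passed the test for a carmofur effect. KLF6 was higher and CDKN1B lower in every carmofur library than in every vehicle library, by modest amounts that did not survive adjustment over all genes. The other members with enough counts overlapped between the groups, and INSR and PIK3IP1 were at or near 0. Of 11426 genes tested in this line, 0% had an adjusted p under 0.05 by edgeR's quasi-likelihood test, and 402 had an unadjusted p under 0.05. Levels here are CPM scaled within each line by the trimmed mean of M-values (TMM). Changes are log2 fold changes of carmofur against vehicle with their standard error (SE).

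Among the feedback genes of insulin signaling, IRS2 (chr13:109752698-109786568), an adaptor that links the insulin receptor to PI3K, was at 38.8, 57.7 and 46.1 CPM in U251P vehicle and 42.9, 43.8 and 47.4 CPM in U251P carmofur. The carmofur libraries lay inside the vehicle range. Its log2 fold change was -0.08 (SE 0.148, 95% interval -0.39 to 0.24). INSR (chr19:7112255-7294034), the insulin receptor itself, had 0 counts in the 3 vehicle libraries, which allows up to 0.22 CPM, and 1 count in the carmofur libraries. PIK3IP1 (chr22:31281593-31292534), a membrane protein that binds and inhibits PI3K, had 0 counts in all 6 U251P libraries. Neither INSR nor PIK3IP1 passed the filter on low counts in U251P, so 8 of the 10 members were tested.

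Among the transcription regulators, KLF6 (chr10:3775996-3785281), a zinc finger factor with tumor suppressor functions, was at 30.6, 33.6 and 31.3 CPM in vehicle and 38.1, 49.4 and 40.7 CPM with carmofur. Every carmofur library was above every vehicle library, a pattern found in that direction for 4.01% of genes tested. The log2 fold change of KLF6 was 0.43 (SE 0.143, 95% interval 0.12 to 0.73), with an unadjusted p of 0.00889 and an adjusted p of 0.999 by edgeR's quasi-likelihood test. CITED2 (chr6:139371807-139374620), a partner of the CBP and p300 coactivators that limits HIF-1 activity, was at 11.6, 10.1 and 6.03 CPM in vehicle and 11.1, 14.5 and 10.4 CPM with carmofur, and the groups overlapped. BCL6 (chr3:187721377-187745727), a transcriptional repressor, was at 8.72, 8.62 and 12.6 CPM in vehicle and 9.26, 9.43 and 14.3 CPM with carmofur. Replicate 3 was the highest library of both groups for BCL6. The changes were 0.39 (SE 0.259) for CITED2 and 0.10 (SE 0.25) for BCL6, and both intervals included 0.

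Among the cell cycle genes, CDKN1B (chr12:12715058-12722371), which encodes the cyclin-dependent kinase inhibitor p27, was at 31.6, 31.5 and 33.2 CPM in vehicle and 27.2, 26.2 and 30.1 CPM with carmofur. All carmofur libraries were below all vehicle libraries, which held for 4.32% of genes in that direction, and the change was -0.21 (SE 0.14, 95% interval -0.51 to 0.09). CCNG2 (chr4:77157151-77433388), an atypical cyclin linked to cell cycle arrest, was at 3.68, 7.73 and 5.25 CPM in vehicle and 3.09, 0.873 and 6.41 CPM with carmofur. Its low counts gave the widest interval of the members, -1.79 to 0.34 around -0.72 (SE 0.501).

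Of the metabolic and stress genes, TXNIP (chr1:145992435-145996600), an arrestin-like protein that binds thioredoxin and lowers glucose uptake, was at 81.8, 115 and 131 CPM in vehicle. With carmofur it was at 73.3, 70.2 and 148 CPM, so the highest and the lowest of the 6 values were both in carmofur libraries. Its change was -0.18 (SE 0.232, 95% interval -0.68 to 0.31). SESN3 (chr11:95165513-95232541), a sestrin that restrains mTORC1 and oxidative stress, was at 59.5, 51.1 and 60.3 CPM in vehicle and 45.5, 52.5 and 56.7 CPM with carmofur. The groups overlapped, and the change was -0.15 (SE 0.129, 95% interval -0.43 to 0.12). Over the 8 members tested, 3 estimates were above 0 and 5 below, with a median of -0.12 beside -0.00 for all genes tested.

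**Figure D1:**
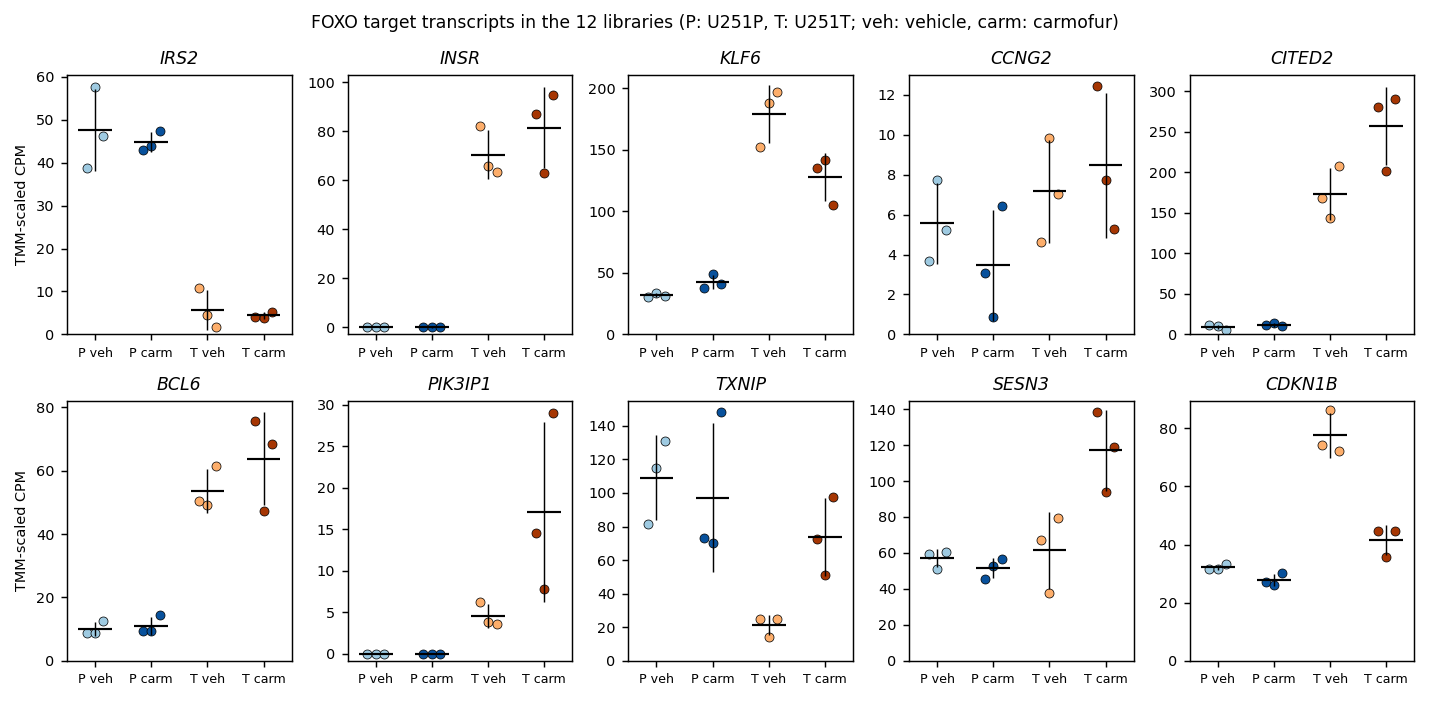
TMM-scaled CPM (linear axis, a separate scale for each gene) of the 10 members in the 12 libraries. Each point is 1 library, the bar is the mean and the vertical line is ± 1 SD (n = 3). The U251T carmofur libraries lie above all U251T vehicle libraries for TXNIP, SESN3 and PIK3IP1 and below them for KLF6 and CDKN1B, while INSR and PIK3IP1 lie at or near 0 in U251P. Of all genes tested in U251T, 16.2% were separate in the higher and 16.7% in the lower direction. PIK3IP1 did not pass the filter on low counts there.

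In U251T cells, carmofur was accompanied by higher TXNIP, SESN3 and CITED2 and by lower CDKN1B. TXNIP rose 3.54-fold, SESN3 2.02-fold and CITED2 1.5-fold, and CDKN1B fell to 0.524 of its vehicle level. The 4 called members therefore did not move 1 way, since CDKN1B, a classical FOXO target, fell while the other 3 rose. Of the 10 members, 7 passed the filter on low counts and 4 passed the test. Over all 7204 genes tested in this line, 8.88% rose and 8.2% fell at an adjusted p under 0.05 by edgeR's quasi-likelihood test.

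TXNIP was at 24.8, 14.3 and 24.6 CPM in U251T vehicle and 72.4, 51.2 and 97.5 CPM with carmofur, from 32, 38 and 14 counts and 70, 53 and 37 counts. The groups were separate, as they were in the higher direction for 16.2% of genes tested. The log2 fold change was 1.82 (SE 0.3, 95% interval 1.19 to 2.45, adjusted p = 0.000325), and TXNIP passed the test under all 13 alternatives. SESN3 was at 67.4, 37.7 and 79.2 CPM in vehicle and 139, 93.8 and 119 CPM with carmofur. Vehicle replicate 2 was the lowest library for both TXNIP and SESN3. For SESN3 the change was 1.01 (SE 0.253, 95% interval 0.48 to 1.55, adjusted p = 0.0091). Without carmofur replicate 1 it was 0.84 with an adjusted p of 0.0809, and SESN3 passed the test under the 12 other alternatives. The smallest change was 0.68, without vehicle replicate 2, with an adjusted p of 0.0394.

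CDKN1B was at 74.3, 86.4 and 72.1 CPM in U251T vehicle and 44.5, 35.8 and 44.8 CPM with carmofur. All carmofur libraries were below all vehicle libraries, which held for 16.7% of genes in the lower direction. The change was -0.93 (SE 0.218, 95% interval -1.39 to -0.47, adjusted p = 0.0059), and it passed under all 13 alternatives. A gene on the same strand, AC008115.3, overlaps CDKN1B, so reads could be shared between them. Genes on the opposite strand overlap SESN3, CITED2, BCL6, IRS2 and CCNG2. The counting is not stated to use strand, so reads could be shared for these members as well. The other cell cycle member, CCNG2, was below the filter, at 4.64, 9.81 and 7.04 CPM in vehicle and 12.4, 7.73 and 5.27 CPM with carmofur, and those values overlapped.

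Of the transcription regulators, CITED2 was at 169, 144 and 208 CPM in U251T vehicle and 280, 202 and 290 CPM with carmofur. Carmofur replicate 2 lay below vehicle replicate 3, so the groups overlapped, and the change was 0.58 (SE 0.176, 95% interval 0.21 to 0.96, adjusted p = 0.0287). This call was the least stable of the 4, holding under 6 of 13 alternatives, and without carmofur replicate 1 the adjusted p was 0.153. KLF6 was at 153, 188 and 197 CPM in vehicle and 136, 142 and 105 CPM with carmofur. The KLF6 groups were separate in the direction opposite to U251P, but its change of -0.45 (SE 0.17, 95% interval -0.81 to -0.09) missed the threshold with an adjusted p of 0.0772. BCL6 was at 50.3, 49.1 and 61.6 CPM in vehicle and 75.5, 47.4 and 68.5 CPM with carmofur, and its groups overlapped with a change of 0.26 (SE 0.234, adjusted p = 0.506).

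The feedback genes of insulin signaling gave no call in U251T. INSR was at 82.1, 66.1 and 63.3 CPM in vehicle and 86.9, 62.8 and 94.9 CPM with carmofur, a change of 0.17 (SE 0.214, adjusted p = 0.663) with overlapping groups. IRS2 was below the filter, at 10.8, 4.53 and 1.76 CPM in vehicle and 4.14, 3.87 and 5.27 CPM with carmofur. PIK3IP1 was also below it, with 8, 10 and 2 counts in vehicle and 14, 8 and 11 counts with carmofur, or 6.19, 3.77 and 3.52 CPM against 14.5, 7.73 and 29 CPM. Its carmofur libraries were all above its vehicle libraries, and when no filter was applied its change was 1.61 (SE 0.536, adjusted p = 0.0384). PIK3IP1-AS1 overlaps it on the opposite strand and the counting is not stated to use strand, so those counts are uncertain.

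**Figure D2:**
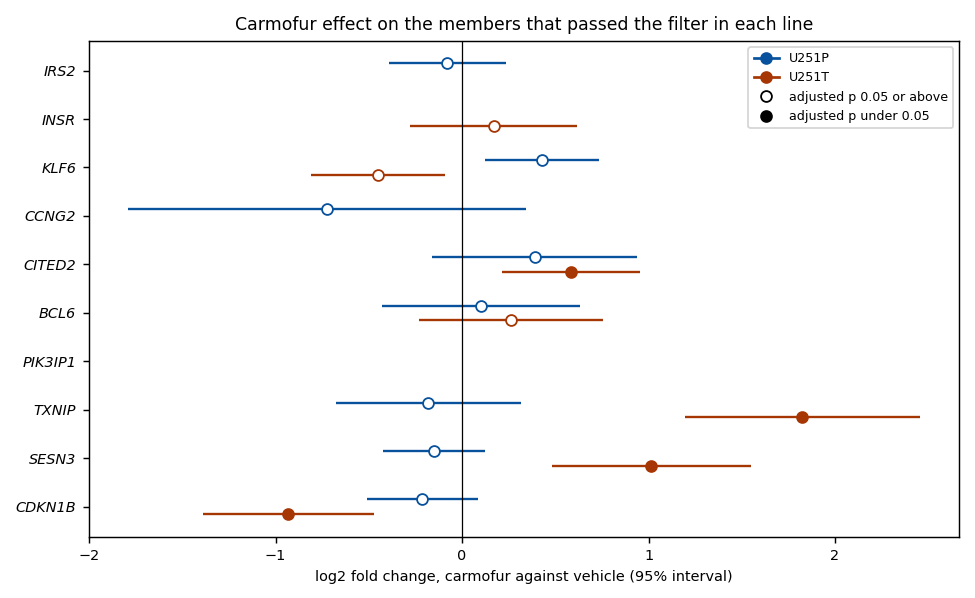
Log2 fold change of carmofur against vehicle (points) with 95% intervals (lines) for the members that passed the filter, 8 in U251P and 7 in U251T, from 3 libraries a group. Filled points have an adjusted p under 0.05. The filled points are CITED2 (0.58), TXNIP (1.82), SESN3 (1.01) and CDKN1B (-0.93), all in U251T.

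Genes around these targets, from 6 lists of FOXO factors, other targets and related pathways, were described in the same way. In U251P, 0 genes of the 6 lists passed the test. Of 20 other FOXO targets tested there, 4 estimates were above 0 and 16 below, with a median of -0.20, and the smallest unadjusted p in that list was that of CAT, catalase, at 0.0098 with a change of -0.47. In the PI3K list of 25 genes, TRIB3, a pseudokinase that binds AKT, had an unadjusted p of 0.0149 with a change of -1.04. KLF6 had the only unadjusted p under 0.05 among the members of this line.

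Of 14 other FOXO targets tested in U251T, 6 rose and 1 fell, with a median of 0.32 beside 0.01 for all genes. CDKN1A, the cyclin-dependent kinase inhibitor p21, rose by 2.16 (adjusted p = 4.95e-06), SESN1 by 2.11, YPEL5 by 1.63, SESN2 by 1.35, BBC3 by 0.77 and GADD45A by 0.68. CDKN1A, SESN1, SESN2, BBC3 and GADD45A are also known targets of p53. BCL2L11, the pro-apoptotic protein BIM and a classical FOXO target, fell with a change of -1.34 (adjusted p = 0.0479). The FOXO factors themselves did not pass the test, with FOXO1 at 1.14 (adjusted p = 0.0993), FOXO3 at -0.71 and FOXO4 at 0.33.

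Of 18 genes of the PI3K to AKT route tested in U251T, 3 rose and 2 fell, and their median was -0.04. Those that rose included PIK3R3 (1.90) and PIK3R1 (0.87), regulatory subunits of PI3K. The genes that fell were PPP2CA (-0.55), a catalytic subunit of protein phosphatase 2A, and PHLPP1 (-1.32), a phosphatase of AKT. PHLPP1 was at 20.1, 15.1 and 15.8 CPM in vehicle and 5.17, 7.73 and 7.91 CPM with carmofur. Its call also rests on low levels. Among 4 partners and relatives of TXNIP, MLX, the partner of the glucose-sensing factors MLXIP and MLXIPL, rose by 0.87 (adjusted p = 0.0276), and TXN, thioredoxin, was at -0.41 without passing the test. Early response genes were mixed, with ATF3 (2.06), DUSP1 (1.40) and EGR1 (0.91) higher and 7 of 10 not called. In the proliferation list 10 of 14 genes fell and 0 rose, with a median of -1.76. The mitotic genes that fell were CCNB2 (-2.77), PLK1 (-2.55), CCNA2 (-2.51), CDK1 (-2.32), CCNB1 (-1.95), TOP2A (-1.93) and BUB1 (-1.91), and the others were the proliferation marker MKI67 (-1.62) and the replication genes MCM3 (-1.42) and PCNA (-0.85). In bulk samples fewer cells of a kind and less RNA per cell cannot be told apart.

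**Figure D3:**
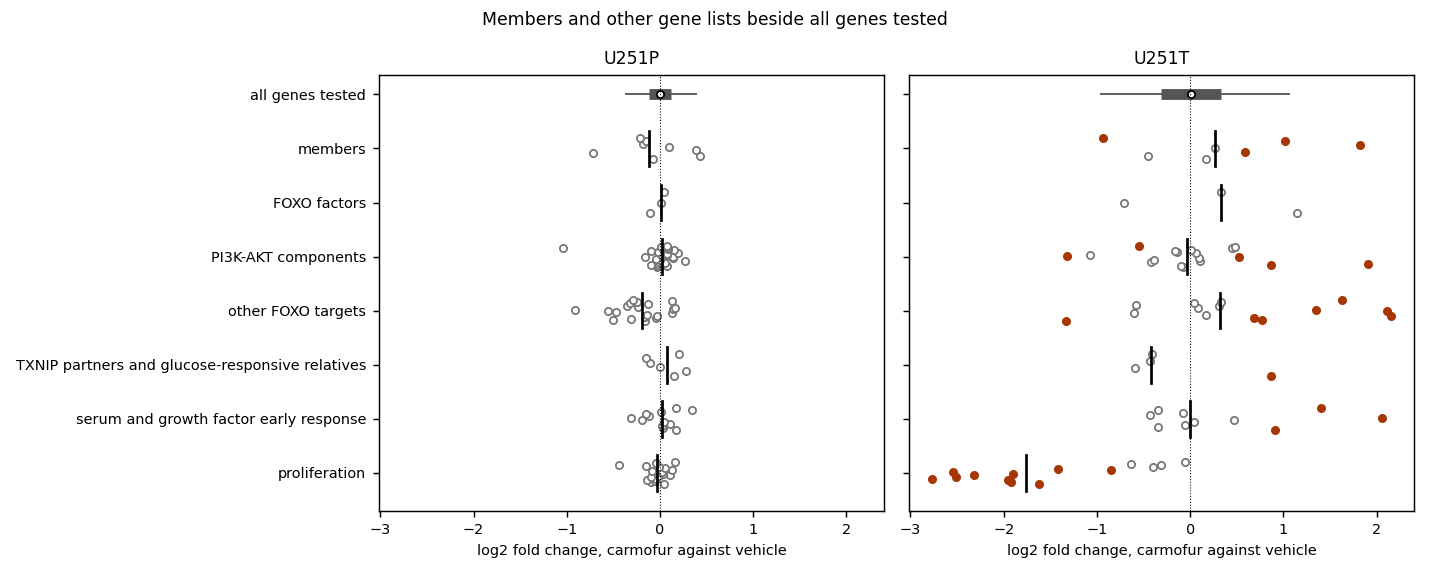
Log2 fold change of carmofur against vehicle for the members and 6 other gene lists, each point a gene and each bar a list median, with all genes tested on top (thick bar 25th to 75th percentile, thin line 5th to 95th, white point median). Filled points have an adjusted p under 0.05. In U251P no point is filled, while in U251T 10 proliferation genes are filled below 0 and 6 other FOXO targets above 0.

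The carmofur effects differed between the lines for TXNIP, SESN3 and KLF6. The effect in U251T minus that in U251P was 1.93 for TXNIP (SE 0.385, adjusted p = 0.00131), 1.13 for SESN3 (SE 0.275, adjusted p = 0.0103) and -0.93 for KLF6 (SE 0.246, adjusted p = 0.0198) by the interaction term of edgeR's quasi-likelihood test. Of 13070 genes tested, 1.8% had a higher and 2.49% a lower effect in U251T at that threshold. CDKN1B differed by -0.80 (SE 0.278, adjusted p = 0.109) and did not pass, although it passed the test in U251T and not in U251P. CITED2 differed by 0.14 (SE 0.297, 95% interval -0.47 to 0.74), so its call in U251T alone does not show a difference between the lines. Among the other FOXO targets 4 of 20 differed, all with the higher effect in U251T: CDKN1A (2.09), SESN1 (2.59), SESN2 (2.19) and YPEL5 (1.85). In the proliferation list 12 of 18 genes had the lower effect in U251T, the 10 that fell there together with MCM2 (-2.75) and MCM5 (-2.00). MCM2 and MCM5 entered this test although they had not passed the filter in U251T alone. With carmofur in U251T, MCM2 was at 1.03, 1.93 and 0 CPM and MCM5 at 3.1, 1.93 and 0 CPM. The higher effect was seen for PIK3R3 (1.75), PIK3R1 (0.90) and ATF3 (2.31).

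BCL6, IRS2 and CCNG2 had differences of 0.10, -0.52 and 0.89, with intervals that included 0. IRS2 and CCNG2 had not passed the filter in U251T alone, so their differences rest on low counts there. No difference is given for INSR and PIK3IP1, which had at most 1 count over the 6 U251P libraries. Leaving out 1 library ended the KLF6 call in 4 of 12 cases, namely U251P vehicle replicate 1 (adjusted p = 0.0531) or 3 (0.0547), U251P carmofur replicate 2 (0.0905) and U251T carmofur replicate 3 (0.0664). For SESN3 the call ended without U251T vehicle replicate 2 (0.082) or carmofur replicate 1 (0.0901), and the TXNIP difference passed under all 18 alternatives. Of all genes called in this test 42.0% had the higher effect in U251T with TMM scaling and 52.9% with no scaling beyond library totals, and the median of all genes moved from -0.02 with TMM to 0.17 with DESeq2.

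**Figure D4:**
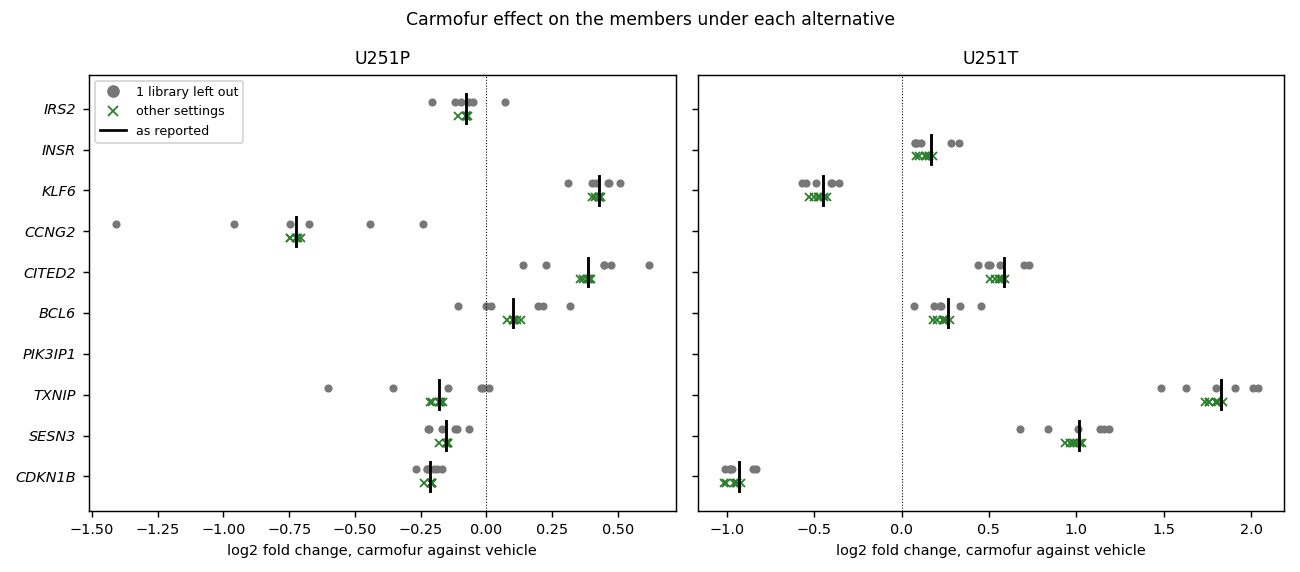
Log2 fold change of carmofur against vehicle for each member under every alternative, with the reported value as a vertical bar, fits without 1 library as grey points and other settings as green crosses. In U251T the TXNIP values stay between 1.48 and 2.04, while in U251P BCL6, IRS2 and TXNIP have values on both sides of 0.

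Vehicle levels of the members differed widely between the libraries labelled U251T and those labelled U251P, as did those of most genes. CITED2 was higher in U251T by 4.11 on the log2 scale (SE 0.207), from 9.25 ± 2.9 CPM in U251P vehicle to 173 ± 32.2 CPM in U251T vehicle (SD, n = 3 each). KLF6 was higher by 2.40 (SE 0.159), BCL6 by 2.28 (SE 0.246) and CDKN1B by 1.21 (SE 0.177). INSR was at least 307-fold higher and PIK3IP1 at least 19.4-fold higher in U251T vehicle, taking 3 counts over the U251P vehicle group as the floor. IRS2 was lower in U251T, at -3.03 (SE 0.322), and so was TXNIP, at -2.57 (SE 0.231).

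By edgeR's quasi-likelihood test 6 members were called higher and 2 lower in U251T, where 39.3% of 12047 genes were called higher and 47.6% lower. The share of members called was thus near that of all genes. CCNG2 (0.42, adjusted p = 0.327) and SESN3 (-0.10, adjusted p = 0.666) were not called. The median of all genes was -0.33 with TMM and -0.48 with DESeq2 scaling, so values between lines shift with the scaling. For TXNIP the order of group means was U251P vehicle (109 ± 25.1 CPM), U251P carmofur (97.2 ± 44.2), U251T carmofur (73.7 ± 23.2) and U251T vehicle (21.2 ± 5.98), and the first 3 neighbours overlapped. For CDKN1B the order was U251T vehicle (77.6 ± 7.7 CPM), U251T carmofur (41.7 ± 5.13), U251P vehicle (32.1 ± 0.985) and U251P carmofur (27.8 ± 2.03), with no overlap between neighbours. At the step between lines the nearest values were 35.8 CPM in U251T carmofur replicate 2 and 33.2 CPM in U251P vehicle replicate 3. These levels were scaled within each line, so that narrow gap depends on the scaling. SESN3 was highest in U251T carmofur (117 ± 22.5 CPM), and its other groups, at 61.4 ± 21.3, 57.0 ± 5.08 and 51.6 ± 5.66 CPM, overlapped.

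The genes whose pattern over the 6 U251P libraries was most like that of KLF6 were KANSL2, ANKRD10 and ALG10, at root mean square distances of 0.069, 0.0739 and 0.078 in centred log2 CPM, where KLF6 itself varied by 0.238. For TXNIP, which varied by 0.418, they were PLEKHH3 (0.0762), ZFPM1 (0.0769) and PNMA8A (0.0971). These genes were picked as the nearest of 11426 tested over only 6 libraries, so small distances follow from the search. Whether they share regulation with KLF6 or TXNIP was not tested.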

How the data were processed

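The 12 libraries were prepared by the authors with the QuantSeq 3′ FWD kit and trimmed and mapped with the BlueBee pipeline, and the labels name build hg38. The deposited values are the authors' unnormalized counts per Ensembl identifier. Annotation release, counting tool, use of strand and treatment of PCR copies are not given in the sources used here. By the labels treatment followed starvation, while the study's methods place the agent in the starvation medium too, and no dose is taken from them. Symbols and positions came from GENCODE release 29 (GRCh38), which matched 56531 identifiers.

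Counts were tested with edgeR (version 4.0.16, quasi-likelihood, TMM, filterByExpr) in R (version 4.3.3), with Benjamini-Hochberg adjustment over all genes tested and a threshold of 0.05, per line, for the interaction in all 12 libraries, and between vehicle groups. Alternatives were DESeq2 (version 1.42.0), upper-quartile scaling, no filter, a minimum of 10 counts per library, blocking on the replicate number, a threshold of 0.1, a joint fit of the 12 libraries, and omission of 1 library at a time. Fits without scaling beyond library totals, and all alternatives for single-gene differences between lines, were added after values were seen. Steps were tested on simulated data. An exact permutation test of 3 against 3 cannot go below 0.1. Replicates of 1 group differed by 1.72 to 11.5 chi-square units per degree of freedom, so none was a duplicate. Floors cover counting error only. Members and lists were chosen with earlier results of these data known. Named were all 10 members, list genes with an adjusted p under 0.05 in a carmofur comparison or else some of those with the smallest p, and for KLF6 and TXNIP the 3 most similar genes. A called gene of the PI3K list is not reported here by name. Figures were drawn in Python (version 3.11.15) with matplotlib (version 3.10.9).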

Additional observations from a re-analysis of the deposited data

Results flagged for a closer look

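The carmofur effect differed between the lines, by the interaction term of edgeR's quasi-likelihood test, for 3 members. The effect in U251T minus that in U251P was 1.93 for TXNIP, 1.13 for SESN3 and -0.93 for KLF6 on the log2 scale. TXNIP and SESN3 were higher with carmofur in 3 of 3 U251T libraries than in any U251T vehicle library. The same held for 16.2% of genes tested in U251T. KLF6 was separate in both lines in opposite directions, and neither line alone gave an adjusted p under 0.05. Separation was found for 4.01% of genes in the higher direction in U251P and 16.7% in the lower direction in U251T.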

How the results depend on the processing

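The number of members called in U251P was 0 under every alternative. In U251T it was 4, and leaving out 1 library gave 2 to 5, with 2 without carmofur replicate 1. Leaving out 1 library turned the sign of uncalled U251P changes, with BCL6 between -0.11 and 0.32, IRS2 between -0.21 and 0.0724 and TXNIP between -0.60 and 0.00847, and of uncalled differences between lines, with BCL6 between -0.12 and 0.31, CITED2 between -0.10 and 0.39 and IRS2 between -0.86 and 0.0603. In U251T no member changed sign. Correlations between vehicle and carmofur libraries were taken after each gene's group mean was removed, so low values do not mean unlike libraries. Same-numbered libraries correlated in this way at 0.23, -0.03 and 0.29 in U251P and 0.08, 0.33 and 0.08 in U251T. Differently numbered libraries correlated at -0.30 to 0.09 in U251P and -0.18 to 0.10 in U251T. Not every library correlated best with its own number, and the numbers were not taken to pair the libraries in the main fits. Whether the numbers mark a structure shared by the groups was not tested. With the replicate block, 0 members were called in U251P, 5 in U251T (KLF6 added, adjusted p = 0.0151), 4 in the interaction (CDKN1B added, adjusted p = 0.0292) and 8 between the lines, and genes called went from 1231 to 2078 in U251T and from 560 to 1156 in the interaction. Without a filter 19 genes of 24349 were called in U251P, against 0. With at least 10 counts in each library 3737 genes, against 10474, were called between the lines, where fewer were tested. Without U251T carmofur replicate 1 the interaction called 367 genes. At 383633 to 2817379 counts, IRS2, CCNG2 and PIK3IP1 did not pass the filter in U251T, and without it their changes were -0.60 (adjusted p = 0.715), 0.17 (adjusted p = 0.896) and 1.61 (adjusted p = 0.0384).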
